A study of Homo sapiens with 4 samples.

Results

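Cyclins are regulatory subunits that bind and activate cyclin-dependent kinases (CDKs), and the cyclin chosen sets both the timing and the targets of the kinase. The D, E, A and B cyclins with CDK1, CDK2, CDK4 and CDK6 drive the cell through its division cycle. Cyclins C, H, K, L and T act on RNA polymerase II and on RNA processing, with CDK7, CDK8, CDK9, CDK11, CDK12, CDK13 and CDK19. All rows with a cyclin symbol (CCN, a letter and any digits) or a CDK symbol (CDK, a number and an optional A or B) were taken from the transcript table of a YTHDC1 RNA-immunoprecipitation sequencing (RIP-seq) experiment, without pseudogene types. They comprised 261 of the 75165 listed transcripts, with 135 transcripts of 25 cyclin genes and 126 transcripts of 21 CDK genes, out of 20298 genes in all.

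RIP-seq, performed here in the human triple negative breast cancer cell line MDA-MB-231, sequences the RNA that an antibody pulls down together with its target protein. All cells, inputs included, had been transduced with 3x flag-YTHDC1, a tagged form of the nuclear reader of N6-methyladenosine, by lentivirus at a multiplicity of infection of 4 and selected for 4 days in 2 μg/ml puromycin, and were UV-crosslinked 3 times at 120000 μJ/cm2 before nuclei were lysed. There were 2 libraries of the anti-flag immunoprecipitate (IP-YTHDC1) and 2 input libraries, so no group without the overexpressed protein was compared here. The values available for a description were the authors' mean normalized counts over all 4 libraries together, which hold immunoprecipitate and input in 1 number. They carry no error and say nothing of the depth of single libraries, which is unknown. Whether a transcript was higher in the immunoprecipitate than in the input is not analysed here.

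The mean normalized counts of the whole table summed to 33361205, of which the cyclins and CDKs made up 0.280%. The cell line was checked with 8 marker genes. VIM (80785), AXL (63189), CD44 (14306) and CAV1 (7624), genes of mesenchymal breast cancer cells, were all listed, whereas the receptor genes ESR1 and PGR were not listed and the epithelial CDH1 had 1 transcript at 10.0. GATA3, a luminal gene placed among those that should be low, was listed with a summed mean of 584. The summed mean of YTHDC1 was 55488 over its 6 transcripts. Reads of the transduced YTHDC1 sequence are not separated there from those of the cells' own gene.

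Each cyclin and CDK gene is described by the sum of the mean normalized counts of its transcripts (its summed mean) and by the percentage of that sum in each transcript. These are numbers of reads and grow with transcript length, which is not given, so summed means are not ranked between genes, and a long transcript takes a larger share than a short one of equal copy number. In RNA pooled from many cells, fewer cells with a transcript and less of it per cell cannot be told apart, which applies to genes transcribed in a limited phase of the cell cycle. Transcripts are listed as protein-coding, as retained intron (holding sequence that other isoforms splice out), as nonsense-mediated decay (with a stop codon placed so that decay is predicted) or as processed transcript (without an annotated open reading frame). Both immunoprecipitate and input were RNA of nuclear lysates, depleted of rRNA. Reads of unspliced precursor RNA therefore cannot be told apart from reads of retained-intron transcripts, and the shares do not describe the mRNA of whole cells. The leading transcript of a gene is the one with its highest mean normalized count.

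**Figure D1:**
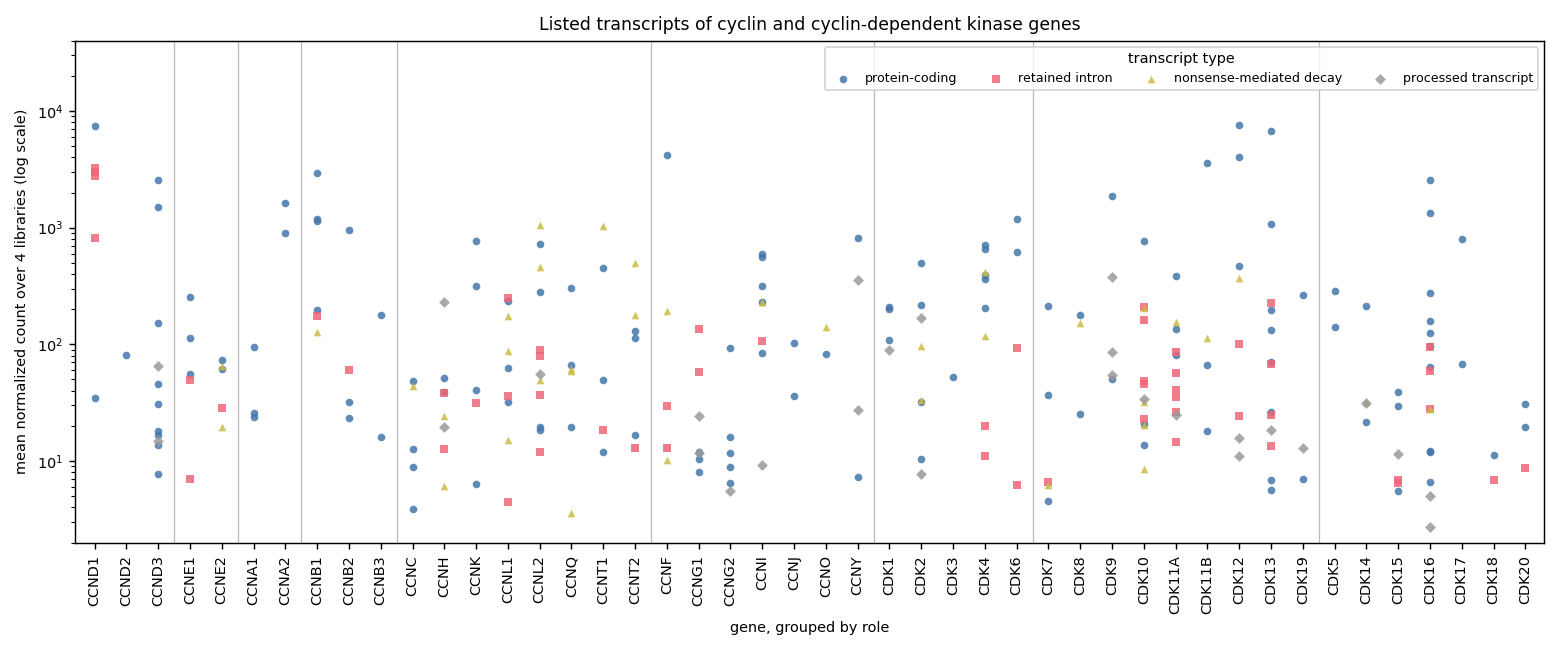
Mean normalized count over the 4 libraries together (y axis, log scale) of each of the 261 listed transcripts, by gene (x axis, grouped by role, grey lines between roles), with colour and shape for transcript type and no error bars, since the values are pooled. Of the 4 retained-intron transcripts of CCND1, 3 (2752 to 3254) are the next points below its leading coding transcript (7503). In CCNL2, CCNT1 and CCNT2 the highest point is a transcript of the decay type.

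The D-type cyclins, which with CDK4 and CDK6 phosphorylate the retinoblastoma protein in G1, differed in the makeup of their transcripts. CCND1 (ENSG00000110092.4), the cyclin D1 gene on chromosome 11, had a summed mean of 17349 over 6 transcripts. Its coding transcript CCND1-201 held 43.2% (mean normalized count 7503), and the retained-intron transcripts CCND1-202, CCND1-204 and CCND1-205 held 18.8%, 17.2% and 15.9%. Together with CCND1's remaining transcript of this type, 56.6% of the reads of CCND1 lay in retained-intron transcripts. CCND3 had a summed mean of 4423 over 11 transcripts, but 98.2% of it was in coding transcripts, mostly CCND3-203 (57.5%) and CCND3-213 (34.2%). CCND2 was listed with a single coding transcript at 80.2. Thus the retained-intron signal of the D-type cyclins, 44.9% of their joint sum, came from CCND1 alone.

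Their kinases were spread over coding isoforms. CDK4 had a summed mean of 2900 over 9 transcripts, and its leading transcript CDK4-201 held only 24.6%, the lowest leading share of the 46 genes. It was followed by the coding CDK4-204 at 22.7%, CDK4-215 of the decay type at 14.5%, and the coding CDK4-214 and CDK4-206 at 13.5% and 12.6%. The RefSeq bounds of CDK4 overlap those of TSPAN31, which is also listed. CDK6, the other D-cyclin kinase, had a summed mean of 1896, of which CDK6-202 and CDK6-201, both coding, held 62.2% and 32.6%.

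The E-type cyclins activate CDK2 at the entry into S phase. CCNE1 had a summed mean of 479 over 5 transcripts, with 88.3% in coding transcripts led by CCNE1-202 (53.1%). CCNE2 had 248 over 5 transcripts and was split almost evenly between the coding CCNE2-201 (29.6%), CCNE2-204 of the decay type (26.4%) and the coding CCNE2-205 (24.5%), so that 54.1% was coding. CDK2 itself had a summed mean of 1063 over 8 transcripts. CDK2-201 held 46.5% and CDK2-202 held 20.6%, both coding, and the processed transcript CDK2-205 held 15.9%. CDK3, a close relative of CDK2, was listed with 1 coding transcript at 52.2, and its gene overlaps the read-through gene TEN1-CDK3, which is listed too.

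The A- and B-type cyclins, which act with CDK2 and CDK1 in S phase and mitosis, were almost wholly in coding transcripts. CCNA2, the cyclin A of dividing somatic cells, had a summed mean of 2548, with 64.4% in CCNA2-202 and 35.6% in CCNA2-201. CCNA1, known from the germ line, had 145 over 3 coding transcripts. CCNB1 had 5773 over 6 transcripts, with CCNB1-206 at 51.2%, CCNB1-204 at 20.4% and CCNB1-203 at 19.8%, and 94.8% of its reads were coding. CCNB2 had 1067, of which CCNB2-201 made up 89.2%. CCNB3, another germ line cyclin, had 193, of which CCNB3-201 made up 91.7%. CDK1, the mitotic kinase, had a summed mean of 606 over 4 transcripts. Here no isoform prevailed, since the coding CDK1-204, CDK1-207 and CDK1-201 held 34.4%, 33.0% and 17.9%, and the processed transcript CDK1-208 held the remaining 14.7%.

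**Figure D2:**
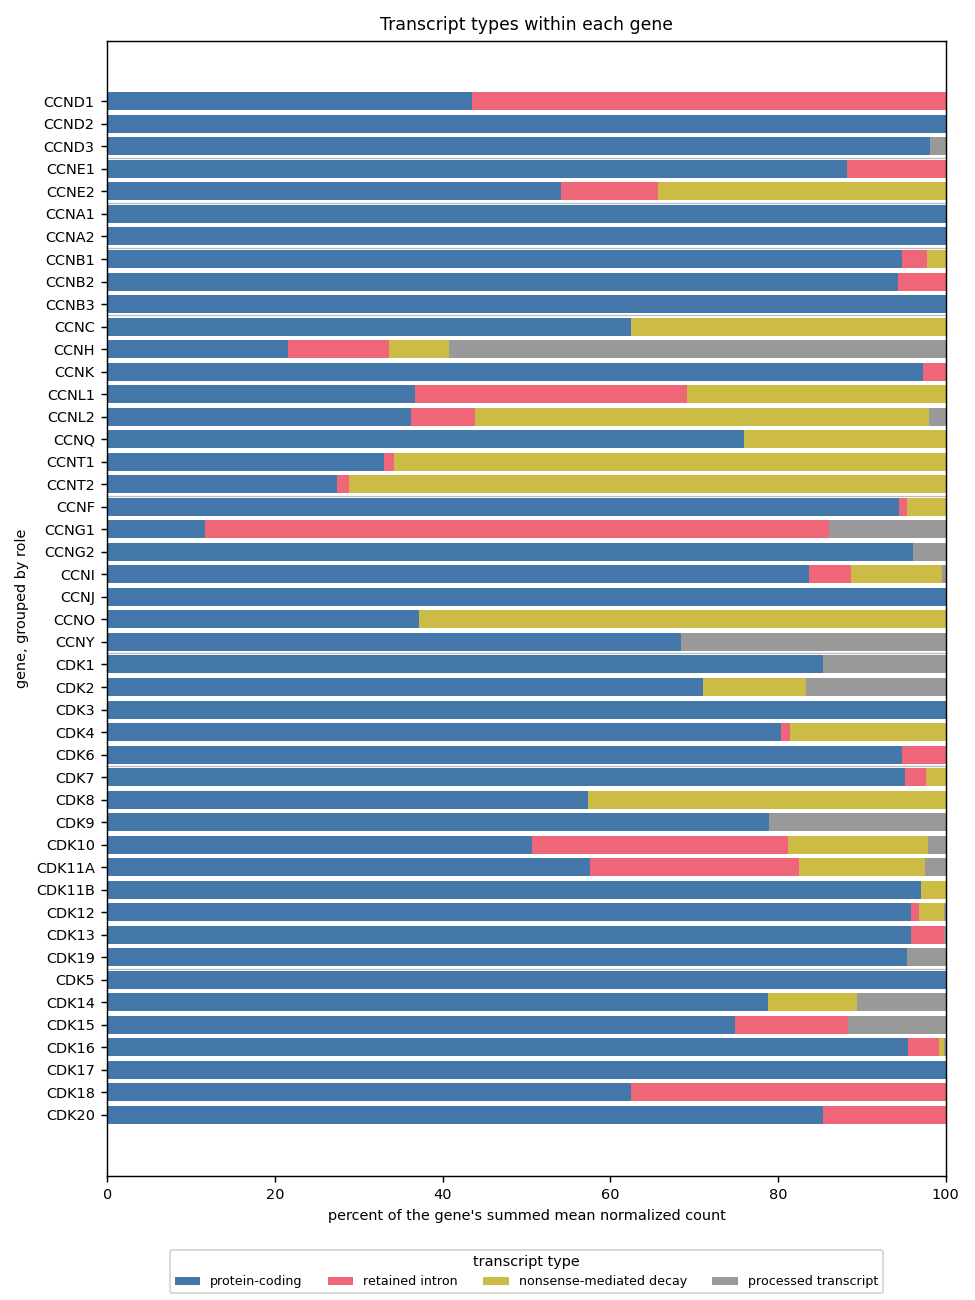
Percentage of each gene's summed mean normalized count (x axis, 0 to 100) in protein-coding, retained-intron, nonsense-mediated decay and processed transcripts (stacked colours), 1 bar per gene, grouped by role. CCND1 and CCNG1 have the widest retained-intron segments (56.6% and 74.4%), CCNT2 and CCNT1 the widest decay segments (71.2% and 65.8%) and CCNH the widest segment of processed transcripts (59.2%).

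The 8 cyclins of transcription and RNA processing had the largest share of the decay type among the roles. Over the group, 43.9% of the summed means lay in 15 transcripts of this type and 45.1% in 26 coding transcripts, against 4.22% and 87.6% over the 14050 protein-coding genes of the table. The 3730 summed in this type came largely from CCNL2-215 (1051), CCNT1-202 (1025), CCNT2-208 (493) and CCNL2-216 (456). By gene, its share was 71.2% in CCNT2, 65.8% in CCNT1, 54.2% in CCNL2, 37.5% in CCNC and 30.8% in CCNL1. It was 24.1% in CCNQ and 7.23% in CCNH, and CCNK had no transcript of this type listed. In 5 of these 8 genes the leading transcript was not a coding one. Of all protein-coding genes 12.9% were led by such a transcript, a share of 13.1% among those with at least 2 listed transcripts. The grouping was made with earlier results of these data known and no test was run, so the counts are a description.

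Cyclins T1 and T2 are partners of CDK9 in P-TEFb, the kinase that releases paused RNA polymerase II. CCNT1 (chr12:48688458-48716707, RefSeq bounds on GRCh38) had a summed mean of 1559 over 5 transcripts, of which CCNT1-202, of the decay type, held 65.8% (mean normalized count 1025) and the coding CCNT1-201 held 29.1% (454). CCNT2 (chr2:134918822-134959342) had 945 over 6 transcripts, and CCNT2-208 (493) and CCNT2-204 (180), both of the decay type, held 52.2% and 19.0%. Its coding transcripts CCNT2-207 and CCNT2-202 held 13.7% and 11.9%. CDK9, in contrast, had 76.8% of its summed mean of 2454 in the coding CDK9-201 and 15.4% in the processed transcript CDK9-205, with no transcript of the decay type listed.

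Cyclins L1 and L2 are partners of CDK11 and take part in splicing. CCNL2 (chr1:1385711-1399335) had a summed mean of 2871 over 12 transcripts. CCNL2-215, of the decay type, led with 36.6% (1051), before the coding CCNL2-201 with 25.1% (720) and CCNL2-216, again of the decay type, with 15.9% (456). CCNL1 (chr3:157143121-157160147) had 899 over 9 transcripts and was divided among the retained-intron CCNL1-218 (27.9%), the coding CCNL1-201 (26.1%) and CCNL1-226 of the decay type (19.4%). Both cyclin L genes thus had under 40% of their reads in coding transcripts, 36.7% for CCNL1 and 36.2% for CCNL2.

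The CDK11 kinase is encoded by a pair of near-identical neighbouring genes, CDK11B (chr1:1635225-1659004) and CDK11A (chr1:1702379-1724357). CDK11B had a summed mean of 3778, of which CDK11B-203 alone held 94.8%. CDK11A had 1040 over 11 transcripts, with 36.9% in the coding CDK11A-208, 15.0% in CDK11A-223 of the decay type and 13.0% in the coding CDK11A-216. Reads that fit both genes were divided between them by estimate, so the split between the pair, and between their isoforms, is uncertain.

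Cyclin H and CDK7 form, with MNAT1, the kinase that activates other CDKs and is part of TFIIH. CCNH (chr5:87311471-87412930) had a summed mean of 422 over 8 transcripts, and the processed transcript CCNH-207 held 54.6% (230), whereas the coding CCNH-201 held 12.3% (51.8). The bounds of CCNH overlap those of RASA1, which is also listed. CDK7 had 266, with 79.7% in the coding CDK7-211, and MNAT1 had 639, with 80.5% in the coding MNAT1-202.

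Cyclin C works with CDK8 or CDK19 in the kinase module of Mediator. CCNC had a summed mean of 118, led by the coding CCNC-210 (40.8%, 48.1) and CCNC-216 of the decay type (37.5%, 44.3). This split rests on few reads, and the bounds of CCNC overlap those of TSTD3, which is also listed. CDK8 had 355, with 50.2% in the coding CDK8-201 and 42.7% in CDK8-205 of the decay type. CDK19 had 283, of which the coding CDK19-202 held 93.0%. The summed means of MED12 and MED13, further parts of this module, were 3105 and 3258, with no transcript of another type than coding listed for MED12 and 5.63% of MED13 in such transcripts.

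Cyclin K with CDK12 or CDK13 phosphorylates RNA polymerase II during elongation, and all of these genes were chiefly in coding transcripts. CCNK had a summed mean of 1162, with 66.1% in CCNK-201 and 27.1% in CCNK-204. CDK12 (chr17:39461486-39567559) had 12691 over 8 transcripts, with 60.3% in CDK12-209 (7657) and 31.9% in CDK12-201 (4044). CDK13 had 8580 over 13 transcripts, and CDK13-202 held 78.2% (6712), above the upper quartile of 57.6% among the 152 protein-coding genes with as many listed transcripts. Coding transcripts made up 97.3%, 95.9% and 95.9% of CCNK, CDK12 and CDK13. Cyclin Q, the partner of CDK10, had a summed mean of 511 for CCNQ, with 59.0% in the coding CCNQ-202 and 24.1% in transcripts of the decay type. CDK10 had 1589 over 13 transcripts, of which only 50.7% was coding, led by CDK10-202 (48.5%), and 30.5% was retained intron.

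**Figure D3:**
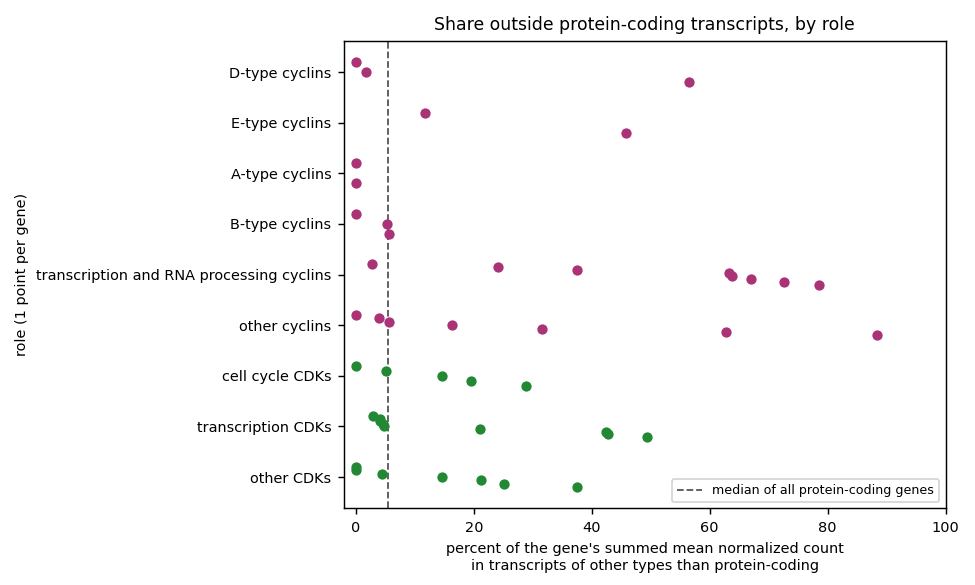
Percentage of each gene's summed mean normalized count outside protein-coding transcripts (x axis), 1 point per gene, in rows by role, with cyclins in purple and CDKs in green and the dashed line at the median of all protein-coding genes (5.42%). The dashed line is not matched for number of listed transcripts, and the median was 10.9% among protein-coding genes with 5 listed transcripts. The 8 points at 50% or more are all cyclins, 5 of them in the row of transcription and RNA processing cyclins, and no CDK lies above 49.3%.

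Among the other cyclins, CCNF, whose protein is the substrate-binding part of a ubiquitin ligase, had a summed mean of 4399, and the coding CCNF-202 held 94.5% of it. CCNG1, a target of p53, was at the opposite end. Of its summed mean of 261 (chr5:163437571-163457640), the retained-intron CCNG1-204 and CCNG1-212 held 52.3% (136) and 22.2% (57.9), and coding transcripts held 11.7%, the lowest coding share of the 46 genes. Its bounds overlap those of NUDCD2, which is listed as well. CCNG2 had 142 with 96.1% in coding transcripts, led by CCNG2-204 (65.8%). CCNO (chr5:55231152-55233608), known from multiciliated cells, had 223, with 62.8% in CCNO-202 of the decay type and 37.2% in the coding CCNO-201. CCNI had 2133 over 8 transcripts without a prevailing one, CCNI-205 holding 28.0% and CCNI-208 holding 26.2%. CCNJ had 139, all coding, with 74.2% in CCNJ-202. CCNI2 and CCNP were not listed, which given the filter of the table says only that too few reads were assigned to their transcripts.

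CCNY, whose protein sits at the plasma membrane and activates CDK14 and CDK16, had a summed mean of 1211, with 67.8% in the coding CCNY-203 and 29.4% in the processed transcript CCNY-208. CDK16 had 4869 over 16 transcripts, the most of the 46 cyclin and CDK genes, yet the coding CDK16-208 and CDK16-202 held 52.6% and 27.5%. CDK14 had 298, with 71.6% in the coding CDK14-202. CDK17, a relative of CDK16, had 866, with 92.1% in CDK17-203. CDK5, best known from neurons, had 430 in 2 coding transcripts, CDK5-204 at 67.2% and CDK5-201 at 32.8%. The genes CDK15, CDK20 and CDK18 had summed means of 99.0, 59.4 and 18.2, so their shares rest on few reads.

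Over all 46 genes, 7 were led by a transcript of another type than coding (15.2%), and all 7 were cyclins. CCNL2, CCNO, CCNT1 and CCNT2 were led by a transcript of the decay type, CCNG1 and CCNL1 by a retained-intron transcript and CCNH by a processed transcript. Of all protein-coding genes 6.19%, 3.09% and 3.53% were led by these types, and 12.9% by any type other than coding, so the share over the 46 genes was near that of all genes. CCND1 was led by a coding transcript but had most of its reads outside coding transcripts, which brought the genes with at least 50% outside coding transcripts to 8 (17.4%, against 12.7% of all protein-coding genes). The median percentage outside coding transcripts was 16.3 for cyclins, 14.6 for CDKs and 5.42 for all protein-coding genes. The genes described here had more listed transcripts, with a median of 5 against 4. Among the 44 with at least 2 transcripts, 25 lay above the median of the genes with as many transcripts. Of all protein-coding genes with at least 2 transcripts, 48.5% lay above that median.

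By transcript type, 77.8% of the reads of the 261 transcripts were in coding, 13.5% in retained-intron, 6.75% in decay-type and 1.89% in processed transcripts. Over all protein-coding genes these shares were 87.6%, 4.16%, 4.22% and 4.02%. The retained-intron share rested on CCND1 and was 3.73% without it, close to the 4.16% of all protein-coding genes. The coding, decay-type and processed shares were then 85.7%, 8.28% and 2.32%, so the decay-type share stayed above that of all protein-coding genes. Counted by number in place of reads, 142 transcripts were coding, 55 retained intron, 37 of the decay type and 27 processed. These were 54.4%, 21.1%, 14.2% and 10.3%, against 59.6%, 17.2%, 9.86% and 13.2% of the 65841 transcripts of all protein-coding genes. The median mean normalized count of the 261 transcripts was 57.9, against 52.2 for all transcripts of protein-coding genes, and the range was 2.72 to 7657.

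**Figure D4:**
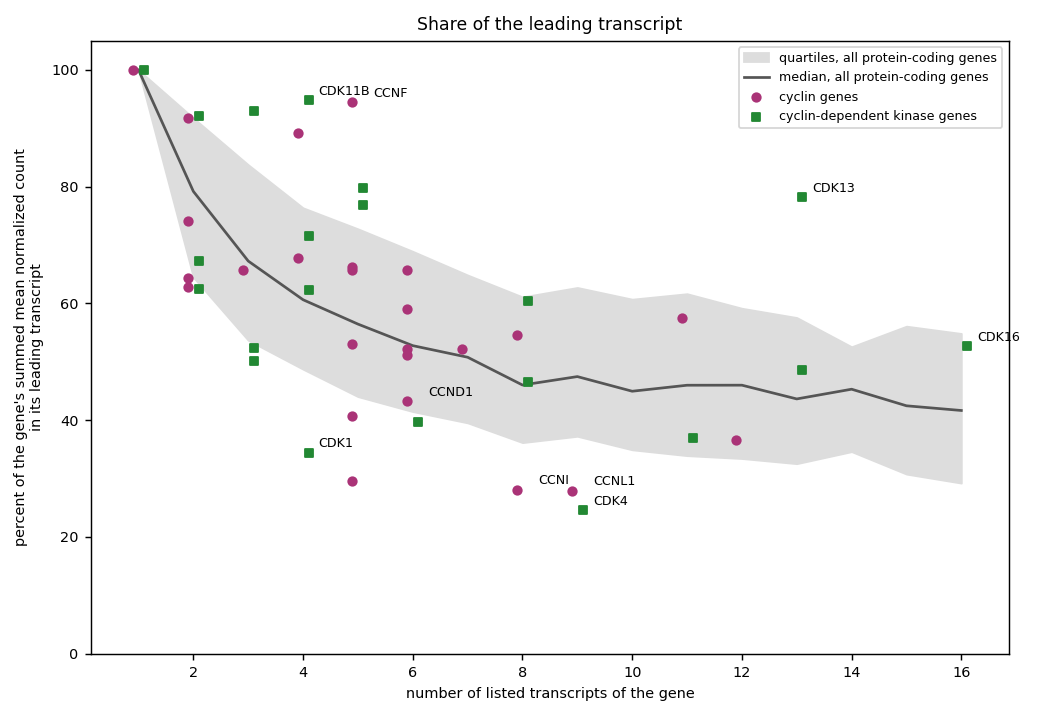
Percentage of a gene's summed mean normalized count in its leading transcript (y axis) against its number of listed transcripts (x axis), for cyclins (purple circles) and CDKs (green squares), with the median (line) and quartiles (grey band) of all protein-coding genes with as many transcripts. Of the labelled genes, CDK11B, CCNF and CDK13 lie above the band and CDK1, CCNI, CCNL1 and CDK4 below it. Other genes outside the band are not labelled.

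Among the 46 genes the leading transcript held a median of 61.3%, with quartiles of 48.9% and 73.5%, against a median of 66.7% for all protein-coding genes. Of the 44 genes with at least 2 transcripts, 23 lay above and 21 below the median of the genes with as many transcripts, 8 above the upper quartile and 12 below the lower quartile. The leading transcript held at least 90% in 7 genes (15.2%, against 27.1% of all protein-coding genes). These were CCNF, CCNB3, CDK11B, CDK17, CDK19 and the single-transcript CCND2 and CDK3. Genes with 1 listed transcript made up 4.35% of the 46 genes, against 18.3% of all protein-coding genes.

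Of the 7 CDK inhibitor genes of the list, CDKN2A and CDKN2B were not listed, while CDKN2C (2692), CDKN1B (1189), CDKN2D (813), CDKN1A (781) and CDKN1C (154) were, each led by a coding transcript. All 15 regulators and targets were listed, among them the phosphatase gene CDC25B (6247), led by the processed transcript CDC25B-206 (32.3%), and SKP2 (388), a ubiquitin ligase subunit that targets p27, led by SKP2-207 of the decay type (44.8%). The other 13, including RB1 (694), E2F1 (3826), WEE1 (1489) and CDC20 (11292), were led by coding transcripts. The 7 further partners in transcription were all listed and led by coding transcripts, among them HEXIM1 (18977), the inhibitor of P-TEFb.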

How the data were processed

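Per the labels and the paper, the authors aligned to GENCODE v33 transcripts (GRCh38) by STAR 2.7.2b, quantified each transcript by RSEM 1.2.31, dropped transcripts that did not reach 5 reads in 50% of the samples, applied RUVSeq and ran DESeq2. Libraries were made from rRNA-depleted RNA with a stranded KAPA kit. Whether the counting used strand, and how duplicates were handled, is not given in the sources used here. The only signal column used is the authors' deposited mean normalized count of each transcript over 4 libraries (2 IP-YTHDC1, 2 input), which has no value per library. The deposited log2 fold changes, their standard errors, p-values and adjusted p-values are the authors' own comparison and were not used, so the planned count test of IP against input was not run.

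RSEM divides reads shared by isoforms or paralogs by estimate. Of the 46 genes, 25 overlap another gene in RefSeq (GRCh38.p14), 12 of them a gene that is also listed, and reads of such pairs on opposite strands can be told apart only if the counting used strand. These 12 are CCNA2, CCNC, CCNE2, CCNG1, CCNH, CCNJ, CCNK, CDK3, CDK4, CDK7, CDK10 and CDK19. All 46 gene identifiers matched the gene name table.

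Means were summed per gene identifier, and shares were computed within genes and set beside those of all protein-coding genes. Every cyclin and CDK gene could be named, with its leading transcript and any other holding at least 10% of the gene. The members and lists were chosen with earlier results of these data known. Python 3.11.15, pandas 2.3.3, numpy 2.4.6, scipy 1.17.1 and matplotlib 3.10.9 were used, and the sums and shares were tested on simulated data. Alternatives were minimum means of 10 and 100, coding or leading transcripts alone, numbers in place of sums and pseudogene types kept, and, added after the data were seen, leaving out CCND1.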

Additional observations from a re-analysis of the deposited data

How the results depend on the processing

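No paired analysis was possible because the values are pooled over all libraries, and for the same reason no replicate could be left out. No values per length were computed, since transcript lengths were not used here. A minimum mean normalized count of 10 left 230 transcripts of all 46 genes, and a minimum of 100 left 99 transcripts of 37 genes. Keeping pseudogene types changed nothing. The median leading share was 61.9% with the minimum of 10, 69.3% with that of 100 and 68.8% among coding transcripts alone. The share of genes led by another type than coding was 15.2% and 18.9% with these minimums. By number of transcripts in place of reads, coding, retained-intron, decay-type and processed transcripts made up 54.4%, 21.1%, 14.2% and 10.3%. Over all protein-coding genes they made up 59.6%, 17.2%, 9.86% and 13.2% by number. With the minimum of 10 the shares of reads of the cyclin and CDK genes by type were 77.9%, 13.5%, 6.73% and 1.87%. With that of 100 they were 79.7%, 12.7%, 6.36% and 1.28%, and without CCND1 they were 85.7%, 3.73%, 8.28% and 2.32%. The summed means of the 46 genes came to 93496, to 72769 for coding transcripts alone and to 54729 for leading transcripts alone. Coding transcripts alone kept the summed mean within 1.5 times in 32 genes and lowered it further in 14, and leading transcripts alone did so in 15 and 31.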
